A study of Mus musculus with 12 samples.

Results

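Lipoproteins are particles that carry lipid through blood, and the liver makes most of the proteins that build them. The account covers 10 genes of this system, measured in mouse liver by RNA sequencing: the apolipoprotein genes Apoa1, Apoa2, Apoa4, Apoa5, Apob, Apoc1, Apoe and Apom, the plasma enzyme gene Lcat and the transfer protein gene Mttp. They were chosen by name, and all 10 matched an entry of the deposited table of 19852 genes exactly. All 10 also passed the filter on low values, in every group. The 12 libraries were made from liver of C57BL/6 mice at an age of 20 weeks, in 4 groups of 3: female ARE-Del, female wild type (WT), male ARE-Del and male WT. The WT mice were littermates of the ARE-Del mice. The ARE-Del allele is a germline deletion of the AU-rich element of Ifng, which destabilises that mRNA, so the cytokine interferon-gamma is expressed chronically, and the deletion is not restricted to liver. The labels' text on tissue collection names only homozygous ARE-Del mice, for WT libraries as well, and the groups used here follow the genotype label of each library.

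High-density lipoprotein (HDL) is built around apolipoprotein A-I, which takes up cholesterol and phospholipid from cells, and the enzyme LCAT then esterifies that cholesterol. Very-low-density lipoprotein (VLDL) is built in the hepatocyte, where the transfer protein MTTP loads lipid onto each apolipoprotein B molecule as it is made. Small exchangeable apolipoproteins such as E and C1 move between particles and set how fast they are lipolysed and cleared. Inflammation is known to alter the protein composition of HDL.

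Expression is given as RPKM, reads scaled to transcript length and library total. Summed RPKM was 201338 to 208647 in female ARE-Del, 174636 to 190533 in female WT, 189579 to 195444 in male ARE-Del and 173476 to 184252 in male WT libraries. No source used here gives the number of reads per library. Ifng, the gene carrying the allele, was at 0.0898 to 0.238 RPKM in female ARE-Del against 0.00957 to 0.0208 RPKM in female WT libraries, and at 0.0742 to 0.123 RPKM in male ARE-Del against 0 to 0.0382 RPKM in male WT libraries. The library labelled female ARE-Del 2 had 0.0456 RPKM of Xist, the RNA of the inactive X chromosome, where the other 5 female libraries had 33.0 to 45.6 RPKM. Ddx3y, a Y-linked gene, was at 0 in all 6 female libraries and at 9.34 to 13.5 RPKM in the male libraries, and female ARE-Del 2 is left out below wherever that ends a call. Alb, the hepatocyte's albumin gene, stood at 16223 RPKM or more in every library. Of 14 matched markers of T and NK cells, 9 were tested and 5 were below the filter of 0.5 RPKM in 3 libraries. Among the 9, 8 were higher and 1 lower in ARE-Del in females, and 7 were higher and 0 lower in males. Of all genes tested, 25.8% were higher in females and 19.5% in males. A gene can pass the filter through ARE-Del libraries alone, so these counts are description only. Gzmb was at 0.479 RPKM or less in every WT library, and Lck was not tested without female ARE-Del 2. Markers of macrophages moved with genotype: 16 of 17 tested passed as higher in ARE-Del in each sex, where 25.8% and 19.5% of all genes did. Of these, Mrc1 did not pass in males without female ARE-Del 2 (0.77, adjusted p = 0.0565 in limma). The summed RPKM of the macrophage markers was 783 to 934 in female ARE-Del against 143 to 245 in female WT, and 435 to 534 in male ARE-Del against 101 to 168 in male WT libraries. Their part in the changes below was not tested, and in whole liver fewer cells of a type cannot be told apart from less RNA per cell. The labels do not say that the 3 libraries of a group come from separate animals, so p-values measure only the spread between these libraries, which may be technical.

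The 10 genes spanned the top of the liver transcriptome. Ranked by mean RPKM over all 12 libraries, Apoa2 was 4th at 3078 RPKM, Apoe 6th at 2848 RPKM, Apoc1 9th at 2267 RPKM and Apoa1 15th at 1953 RPKM. Apob was 41st at 607 RPKM and Apoa5 90th at 239 RPKM. Lcat at 108 RPKM and Apom at 97.9 RPKM were ranked 199th and 219th, and Mttp at 38.7 RPKM and Apoa4 at 28.5 RPKM were ranked 563rd and 726th. The order did not hold in every group. In female ARE-Del livers Apoa1 had 2045, 2455 and 2618 RPKM beside 2048, 1914 and 1818 RPKM of Apoc1, so that Apoa1 was the higher in replicates 2 and 3, whereas in female WT livers every Apoc1 value (2131 to 2492 RPKM) lay above every Apoa1 value (1144 to 1505 RPKM). Over the 12 libraries the ranges of neighbours in this order overlapped, except those of Apoa1 and Apob, of Apob and Apoa5, of Apoa5 and Lcat, and of Apom and Mttp. Together the 10 genes took 5.32 ± 0.17% of summed RPKM in female ARE-Del and 6.10 ± 0.30% in female WT, and 5.99 ± 0.30% in male ARE-Del and 6.35 ± 0.34% in male WT libraries (SD, n = 3 each). Spread within a group was smallest for Mttp in male WT (coefficient of variation 1.81%) and largest for Apoa4 in male ARE-Del (96.7%).

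**Figure D1:**
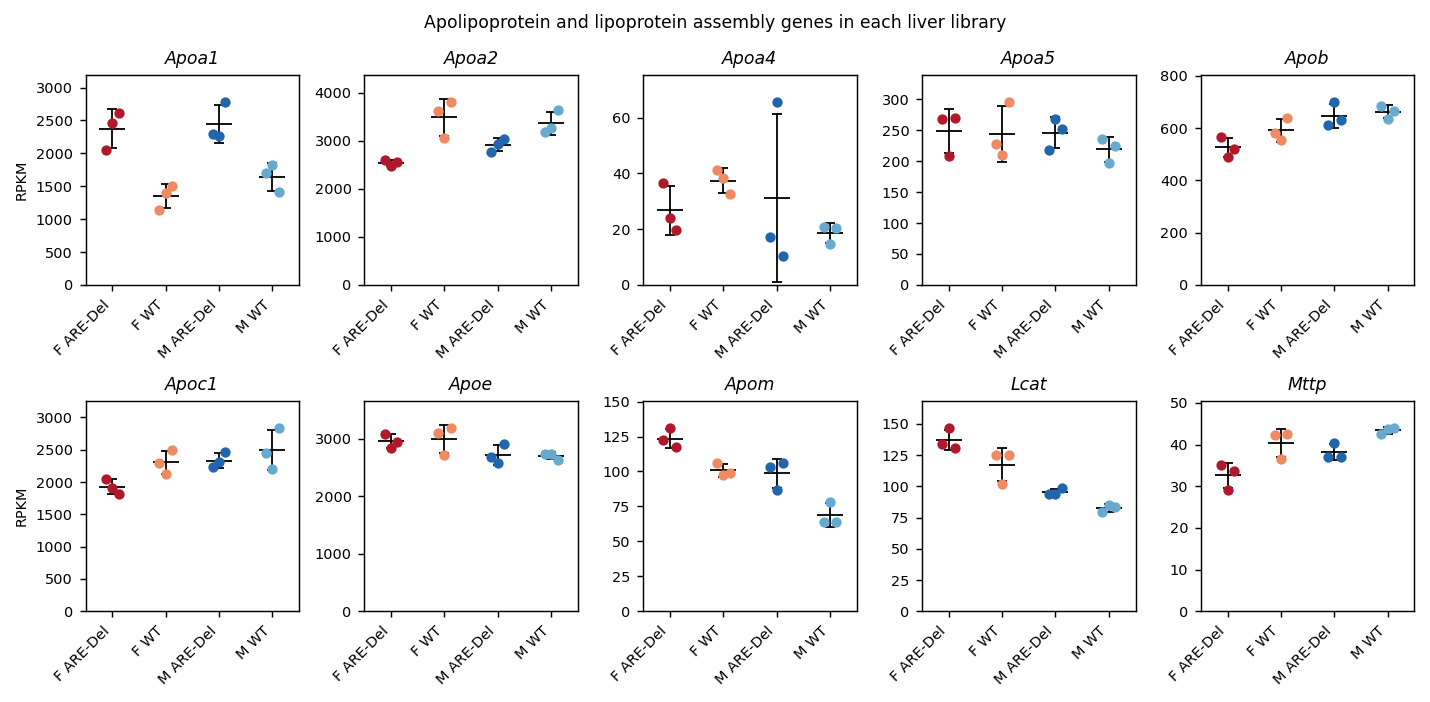
RPKM of each of the 10 genes in each library, with 1 point per library and the mean and SD of each group of 3 (F, female; M, male). Apoa1 stands higher in both ARE-Del groups than in their WT groups without overlap, Apoa2 stands lower, and Apoa4 has 1 male ARE-Del library at 65.6 RPKM.

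In female livers, ARE-Del against WT, 3 of the 10 genes passed the test: Apoa1 rose, and Apoa2 and Mttp fell. Of all 10568 genes tested, 31.3% passed in this comparison, 25.8% higher and 5.53% lower in ARE-Del, so 3 of 10 is close to the background share. The median log2 change of the 10 genes was -0.09, against 0.09 over all genes tested. In male livers, ARE-Del against WT, 2 of the 10 genes passed, Apoa1 and Apom, and both rose. The background there was 21.5%, with 19.5% higher and 2.04% lower. The median log2 change was 0.09 for the 10 genes and 0.10 over all genes tested. Lack of overlap between groups of 3 libraries is given below as description only. The share of all genes whose groups do not overlap was not computed.

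Among the HDL proteins, Apoa1, its main structural protein and the activator of LCAT, moved furthest. It was at 2045, 2455 and 2618 RPKM in female ARE-Del livers, against 1144, 1399.8 and 1505 RPKM in female WT livers. In males it was at 2292, 2263 and 2781 RPKM in ARE-Del livers, against 1697, 1822 and 1412 RPKM in WT livers. The groups did not overlap in either sex, and every ARE-Del library lay above every WT library of both sexes. The ratio of group means was 1.76 in females and 1.49 in males. On the log2(RPKM + 1) scale Apoa1 rose by 0.82 ± 0.14 in females (SE, limma with Benjamini-Hochberg adjustment over all genes tested, adjusted p = 0.00089) and by 0.57 ± 0.14 in males (adjusted p = 0.0141, limma). The female call held in all 23 alternatives tried. The male call held in 18 of 23 and ended under median-of-ratios scaling (0.41, adjusted p = 0.102 in limma), equal totals without the 20 highest genes (0.45, adjusted p = 0.0694 in limma) and without a filter (adjusted p = 0.0570 in limma), and without male ARE-Del 3 (adjusted p = 0.0588 in limma) or male WT 3 (adjusted p = 0.0593 in limma).

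Apoa2 encodes the second most abundant structural protein of HDL, and it went the other way. It was at 2596, 2467 and 2562 RPKM in female ARE-Del livers, against 3609.8, 3064 and 3807 RPKM in female WT livers, with no overlap. It fell by 0.45 ± 0.10 on the log2 scale in females (SE, adjusted p = 0.0041, limma), in all 23 alternatives. In males it was at 2771, 2942 and 3035 RPKM in ARE-Del livers, against 3181, 3264 and 3635 RPKM in WT livers. These groups did not overlap either, but the log2 difference of -0.20 ± 0.10 (SE) did not pass (adjusted p = 0.170, limma). It passed under median-of-ratios scaling (-0.37) and equal totals without the 20 highest genes (-0.33), and was 0.04 under quantile normalization. A factor common to all genes of a library cancels in the ratio of Apoa1 to Apoa2 within it, though quantile normalization, which is not such a factor, changes it. As deposited the ratio was 0.788 to 1.02 in female ARE-Del against 0.317 to 0.457 in female WT livers, and 0.769 to 0.916 in male ARE-Del against 0.389 to 0.558 in male WT livers. Apoa1 was thus near the level of Apoa2 in ARE-Del livers of both sexes, and at 0.558 of it or less in every WT liver.

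**Figure D2:**
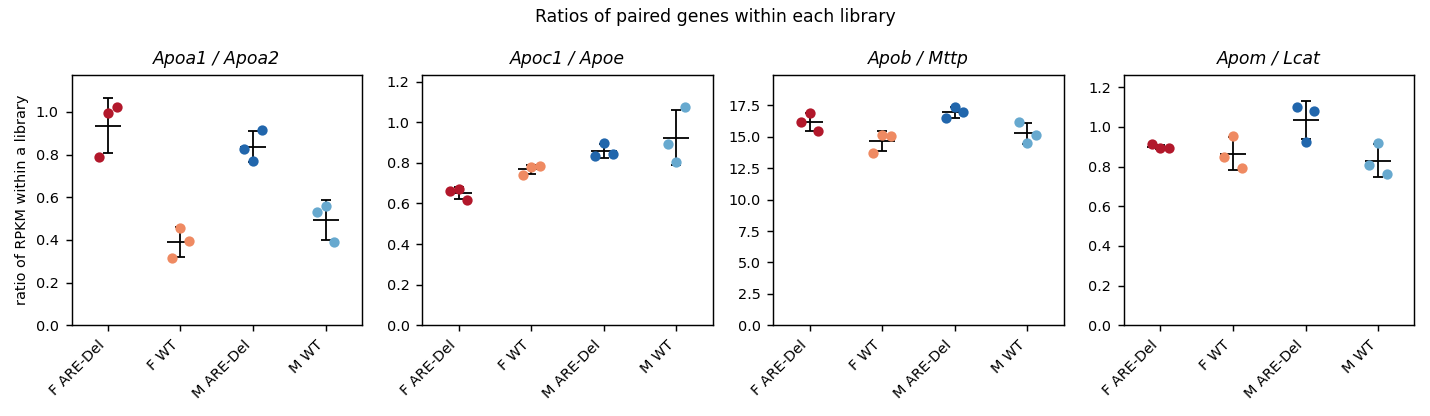
Ratio of RPKM between paired genes within each library, with 1 point per library and the mean and SD of each group of 3. The Apoa1 to Apoa2 ratio is 0.769 or more in all 6 ARE-Del libraries and 0.558 or less in all 6 WT libraries, and the other ratios differ less between genotypes.

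Apom, the HDL apolipoprotein that binds sphingosine 1-phosphate, stood higher in ARE-Del livers of both sexes. It was at 103, 86.9 and 106 RPKM in male ARE-Del livers, against 63.8, 78.5 and 63.5 RPKM in male WT livers. Every ARE-Del male lay above every WT male, and Apom rose by 0.52 ± 0.10 on the log2 scale (SE, adjusted p = 0.0038, limma), in all 23 alternatives. In females it was at 122, 131 and 117 RPKM in ARE-Del livers, against 106, 97.4 and 99.1 RPKM in WT livers. These groups did not overlap, and the log2 difference of 0.29 ± 0.10 (SE) had an adjusted p of 0.0511 in limma, just outside the threshold of 0.05. It passed in 4 of 23 alternatives, and was 0.25 without female ARE-Del 2 (adjusted p = 0.136, limma). Under the 3 other scalings it was smaller, at 0.14 with median-of-ratios (adjusted p = 0.365, limma), 0.16 with quantile normalization and 0.20 with equal totals without the 20 highest genes.

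Lcat, the enzyme that esterifies cholesterol on HDL, was at 134, 146 and 131 RPKM in female ARE-Del livers, against 125, 102 and 125 RPKM in female WT livers. In males it was at 93.9, 94.0 and 98.2 RPKM in ARE-Del livers, against 79.1, 85.2 and 83.1 RPKM in WT livers. The ARE-Del values lay above the WT values in each sex, but the log2 differences of 0.23 ± 0.09 in females and 0.21 ± 0.09 in males (SE) did not pass (adjusted p = 0.0738 and 0.122, limma). Their 95% intervals were 0.03 to 0.43 and 0.01 to 0.41 as deposited. Under the 3 other scalings the differences shrank to 0.07 to 0.13 in females and 0.05 to 0.08 in males.

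Among the proteins that build triglyceride-rich particles, Mttp, which loads lipid onto apolipoprotein B in the endoplasmic reticulum, was lower in ARE-Del livers. It was at 35.0, 29.1 and 33.6 RPKM in female ARE-Del livers, against 42.3, 36.5 and 42.5 RPKM in female WT livers. Every ARE-Del liver lay below every WT liver. Mttp fell by 0.30 ± 0.09 on the log2 scale (SE, adjusted p = 0.0186, limma). The call was lost without female ARE-Del 2 (-0.23, adjusted p = 0.0722 in limma), without female WT 1 (adjusted p = 0.0610 in limma) or female WT 3 (adjusted p = 0.0676 in limma), and when only the 6 libraries compared were fitted (adjusted p = 0.0737 in limma). In males Mttp was at 37.1, 40.4 and 37.1 RPKM in ARE-Del livers, against 42.5, 43.8 and 43.9 RPKM in WT livers, without overlap. The male log2 difference of -0.18 ± 0.09 (SE) did not pass as deposited (adjusted p = 0.159, limma), but passed under all 3 other scalings, at -0.30 to -0.34.

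Apob, the structural protein of VLDL of which each particle carries a single molecule, was at 567, 492 and 520.3 RPKM in female ARE-Del livers, against 580.0, 553 and 641 RPKM in female WT livers. The groups overlapped, and the log2 difference was -0.17 ± 0.09 (SE, adjusted p = 0.192, limma). It passed under median-of-ratios scaling (-0.32) and equal totals without the 20 highest genes (-0.26). In males Apob was at 610.5, 700.2 and 629.9 RPKM in ARE-Del livers, against 686, 636 and 665 RPKM in WT livers, and the groups overlapped (log2 difference -0.04 ± 0.09, SE, adjusted p = 0.815, limma). The ratio of Apob to Mttp within a library was 15.5 to 16.9 in female ARE-Del against 13.7 to 15.1 in female WT livers, and 16.5 to 17.4 in male ARE-Del against 14.5 to 16.1 in male WT livers. This ratio was higher in ARE-Del livers without overlap in both sexes.

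Apoa5, which promotes hydrolysis of triglyceride by lipoprotein lipase in plasma, was at 208 to 269.8 RPKM in female ARE-Del and 209 to 295 RPKM in female WT livers, and at 218 to 268 RPKM in male ARE-Del and 197 to 236 RPKM in male WT livers. All groups overlapped. The log2 difference was 0.03 in females (95% interval -0.28 to 0.35) and 0.17 in males (95% interval -0.15 to 0.48). Apoa4, an apolipoprotein of intestine and liver, was the most variable of the 10 genes. It was at 36.6, 24.1 and 19.5 RPKM in female ARE-Del livers, against 41.2, 38.4 and 32.7 RPKM in female WT livers. In males it was at 17.2, 65.6 and 10.5 RPKM in ARE-Del livers, against 20.9, 14.7 and 20.6 RPKM in WT livers. Male ARE-Del 2 alone lay above all other libraries, and the genotype differences were -0.51 ± 0.48 in females and 0.30 ± 0.48 in males on the log2 scale (SE, adjusted p = 0.451 and 0.693, limma). Markers of enterocytes, the other main source of this apolipoprotein, summed to 33.0 to 64.7 RPKM across the libraries, and 0 of their 3 tested genes passed in either sex as deposited. The sum was mostly Fabp2 (mean 31.1 RPKM) and Anpep (mean 18.2 RPKM), and 4 of the 7 matched markers were below the filter. Fabp2 had log2 differences of -0.63 in females and -0.66 in males. It passed as lower in both sexes under median-of-ratios scaling (adjusted p = 0.0343 and 0.0436, limma).

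Apoc1 and Apoe are neighbours on chromosome 7 and encode exchangeable apolipoproteins, with apolipoprotein E the ligand by which remnant particles are cleared. Apoc1 was at 2048, 1914 and 1818 RPKM in female ARE-Del livers, against 2299, 2131 and 2492 RPKM in female WT livers. The groups did not overlap, and the log2 difference of -0.26 ± 0.11 (SE) did not pass as deposited (adjusted p = 0.0866, limma) but passed under each of the 3 other scalings, at -0.35 to -0.49. In males Apoc1 was at 2228 to 2463 RPKM in ARE-Del and 2209 to 2833 RPKM in WT livers, with a log2 difference of -0.09 ± 0.11 (SE, adjusted p = 0.578, limma). Apoe stayed within 2577 and 3185 RPKM in all 12 libraries. It was at 2849.9 to 3093 RPKM in female ARE-Del and 2726 to 3185 RPKM in female WT livers, and at 2577 to 2914 RPKM in male ARE-Del and 2637 to 2742 RPKM in male WT livers. The 95% intervals of its log2 difference were -0.22 to 0.18 in females and -0.19 to 0.20 in males. Macrophages also express Apoe, and their summed markers stood higher in ARE-Del livers as given above. The ratio of Apoc1 to Apoe within a library was 0.619 to 0.672 in female ARE-Del against 0.741 to 0.783 in female WT livers, without overlap, and 0.832 to 0.897 in male ARE-Del against 0.806 to 1.07 in male WT livers, with overlap.

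**Figure D3:**
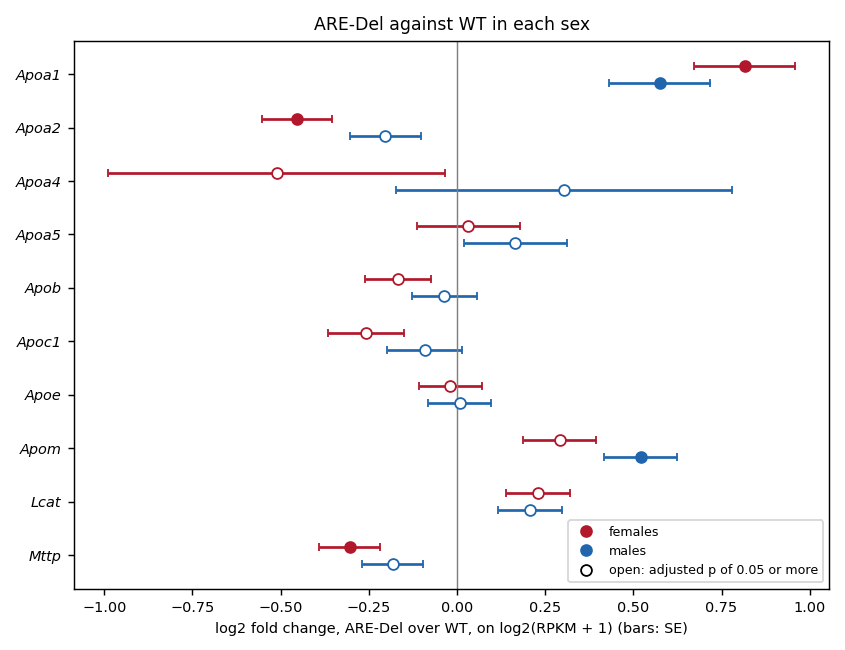
Log2 change of each gene in ARE-Del against WT on log2(RPKM + 1), in females and in males, with bars of 1 SE and open symbols where the adjusted p is 0.05 or more. Apoa1 lies to the right of 0 in both sexes, at 0.82 in females and 0.57 in males, and Apoa2 and Mttp lie to the left.

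Which of these genes passed depended on how libraries were scaled. Median-of-ratios scaling shifted the median log2 change of all genes by -0.10 in females and -0.11 in males, and quantile normalization by -0.16 and -0.14. The share of calls that were higher in ARE-Del in females was 82.3% as deposited, 52.3% under median-of-ratios scaling, 65.0% with equal totals without the 20 highest genes and 39.3% under quantile normalization. In males it was 90.5%, 55.7%, 68.0% and 44.5% in the same order. For the 10 genes, the deposited scale gave 1 higher and 2 lower in females, against 1 and 4, 1 and 4, and 1 and 3 under those 3 scalings. In males it gave 2 higher and 0 lower, against 1 and 2, 1 and 2, and 2 and 1. Over all 10568 genes tested, 2722 were higher and 584 lower in females as deposited. Under those scalings, in the same order, 1915, 2179 and 1616 were higher and 1750, 1176 and 2497 lower. For males 2056 were higher and 216 lower as deposited, against 1217, 1253 and 923 higher and 967, 589 and 1153 lower. Apoa1 in females, Apoa2 in females, Mttp in females and Apom in males passed in the same direction under all 4 scalings.

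**Figure D4:**
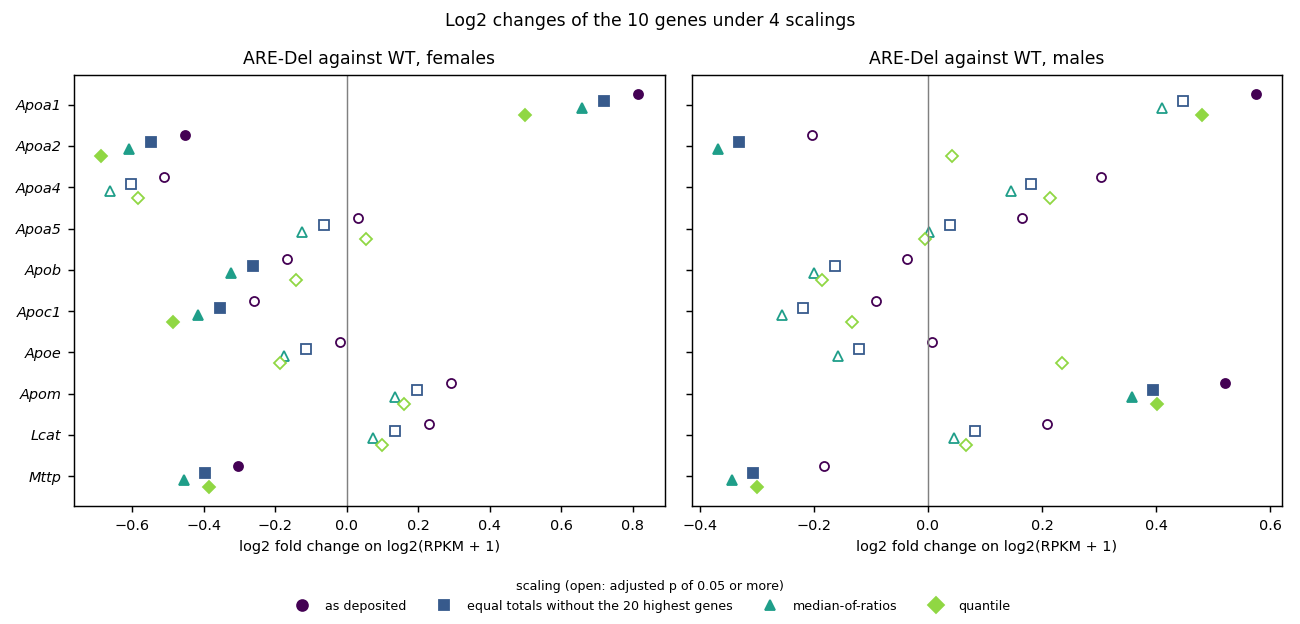
Log2 change of each gene in ARE-Del against WT under the deposited scale and 3 other scalings, in females on the left and in males on the right, with open symbols where the adjusted p is 0.05 or more. Most genes shift to the left under the other scalings, Apoa1 stays to the right of 0 and Apoa2 in males crosses 0 under quantile normalization.

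The effect of ARE-Del was not shown to differ between the sexes for any of the 10 genes. None of the 10 passed the interaction test (lowest adjusted p = 0.576, for Apoa2, limma), 0 of 10 had an unadjusted p under 0.05, and 0 passed in any alternative. Of all genes tested, 0.568% passed. The intervals were wide: the interaction of Apoa1, female effect minus male effect, was 0.24 with a 95% interval of -0.20 to 0.68, and that of Apom was -0.23 with an interval of -0.55 to 0.09.

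In ARE-Del livers, females against males, Lcat and Apom were higher in females and Apob was lower, so 3 of 10 genes passed where 22.4% of all genes did (16.4% higher and 6.02% lower in females). In WT livers 2 of 10 passed, Lcat and Apom, both higher in females, where 9.76% of all genes did (6.72% higher and 3.04% lower). Lcat had the steadiest sex difference. At 131 to 146 RPKM in female ARE-Del livers against 93.9 to 98.2 RPKM in male ARE-Del livers, its log2 difference was 0.52 ± 0.09 (SE, adjusted p = 0.0017, limma). In WT livers it was at 102 to 125 RPKM in females against 79.1 to 85.2 RPKM in males, a difference of 0.50 ± 0.09 (SE, adjusted p = 0.0045, limma). Both calls held in all 23 alternatives, and without female ARE-Del 2 the ARE-Del difference was 0.47 (adjusted p = 0.0073, limma).

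Apom was at 97.4 to 106 RPKM in female WT livers against 63.5 to 78.5 RPKM in male WT livers, a log2 difference of 0.55 ± 0.10 (SE, adjusted p = 0.0055, limma) that held in all 23 alternatives. In ARE-Del livers it was at 117 to 131 RPKM in females against 86.9 to 106 RPKM in males. That difference of 0.32 ± 0.10 (SE, adjusted p = 0.0428, limma) passed in 10 of 23 alternatives and not without female ARE-Del 2 (0.28, adjusted p = 0.116 in limma). Male ARE-Del livers had Apom levels that overlapped those of female WT livers. Apob was at 492 to 567 RPKM in female ARE-Del livers against 610.5 to 700.2 RPKM in male ARE-Del livers, lower by 0.30 ± 0.09 on the log2 scale (SE, adjusted p = 0.0375, limma). This call held in 12 of 23 alternatives and not without female ARE-Del 2 (-0.25, adjusted p = 0.104 in limma).

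Apoa4 was higher in every WT female (32.7 to 41.2 RPKM) than in any WT male (14.7 to 20.9 RPKM). The groups did not overlap. The log2 difference of 0.97 ± 0.48 (SE) did not pass with all 12 libraries fitted together (adjusted p = 0.223, limma), where the spread of the male ARE-Del group enters the error. It passed without male ARE-Del 2 (adjusted p = 0.0228, limma) and with only the 6 WT libraries (adjusted p = 0.00366, limma). In ARE-Del livers the groups overlapped, at 19.5 to 36.6 RPKM in females and 10.5 to 65.6 RPKM in males, and without male ARE-Del 2 the difference was 0.89 (adjusted p = 0.0412, limma). Apoe, Apoa5 and Apoa1 overlapped between the sexes in both genotypes. For Apoe in WT livers the log2 difference was 0.15 as deposited and passed under quantile normalization alone, at 0.51 (adjusted p = 0.0069, limma). Apoa2, Apoc1 and Mttp did not overlap in ARE-Del livers, with every female below every male, and overlapped in WT livers. None of these 3 passed as deposited, and how many of all genes separate in this way was not counted. In ARE-Del livers Mttp was lower in females under each of the 3 other scalings (-0.25 to -0.27, adjusted p = 0.0060 to 0.0205 in limma), and Apoc1 with equal totals without the 20 highest genes (-0.31, adjusted p = 0.0473 in limma).

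**Figure D5:**
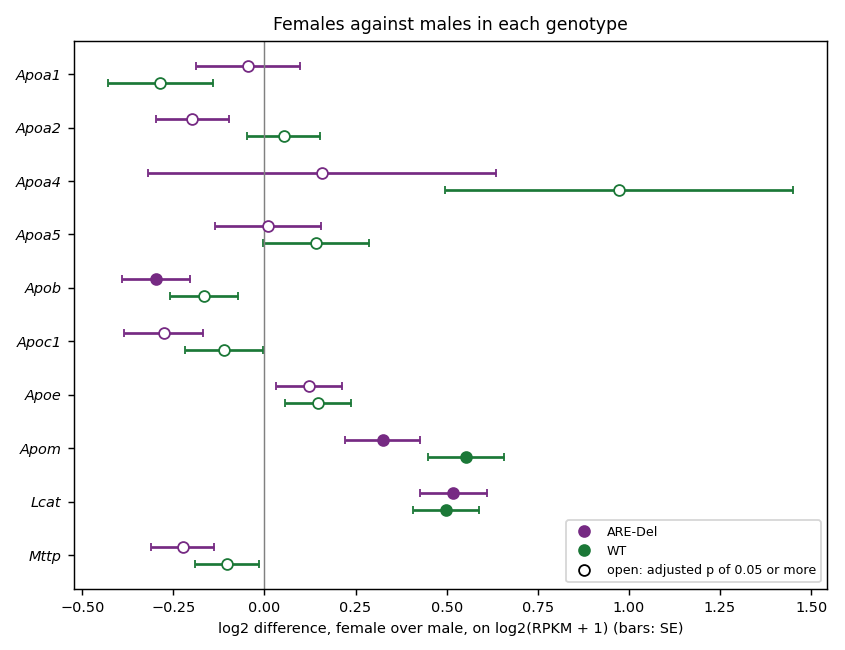
Log2 difference of each gene, female over male, in ARE-Del and in WT livers on log2(RPKM + 1), with bars of 1 SE and open symbols where the adjusted p is 0.05 or more. Lcat lies at 0.52 in ARE-Del and 0.50 in WT livers, Apom is above 0 in both genotypes, and Apoa4 has the longest bars.

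The proximal promoters of the 4 HDL genes are printed because these genes gave most of the calls above. Apoa1 and Apoa2 moved in opposite directions, while Apom and Lcat shared a sex difference. The windows run from 250 bases before to 50 bases after the start site in RefSeq, assembly GRCm38.p6, each 5′ to 3′ on the strand of the gene, and 9 of the 10 genes matched a window, all but Apoc1. Capitals mark matches to 1 of 4 motifs searched on both strands: the nuclear receptor half-site AGGTCA or GGGTCA, the HNF4 core CAAAGNNCA, the HNF1 half-site GTTAAT and the TATA box TATAAA. The HNF4 core can contain the half-site AGGTCA, and no matches in the windows below overlapped.
Apoa1, chr9:46228380-46228679, plus strand: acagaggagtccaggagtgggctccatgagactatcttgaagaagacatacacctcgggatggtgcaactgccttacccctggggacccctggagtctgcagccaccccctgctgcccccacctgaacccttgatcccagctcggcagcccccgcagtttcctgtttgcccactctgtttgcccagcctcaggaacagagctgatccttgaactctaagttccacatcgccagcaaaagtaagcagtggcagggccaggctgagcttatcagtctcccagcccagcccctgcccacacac
Apoa2, chr1:171224804-171225103, plus strand: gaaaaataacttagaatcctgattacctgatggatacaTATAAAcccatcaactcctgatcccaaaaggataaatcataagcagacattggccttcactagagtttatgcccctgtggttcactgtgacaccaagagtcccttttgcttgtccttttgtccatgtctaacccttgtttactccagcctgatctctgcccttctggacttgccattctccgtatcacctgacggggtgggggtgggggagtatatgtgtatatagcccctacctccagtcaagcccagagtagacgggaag
Apom, chr17:35131752-35132051, minus strand: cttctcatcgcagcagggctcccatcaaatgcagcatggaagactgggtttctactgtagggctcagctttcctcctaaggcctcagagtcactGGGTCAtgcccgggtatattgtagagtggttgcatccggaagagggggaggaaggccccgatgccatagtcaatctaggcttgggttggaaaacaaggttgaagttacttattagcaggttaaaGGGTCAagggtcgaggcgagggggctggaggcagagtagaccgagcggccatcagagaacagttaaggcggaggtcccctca
Lcat, chr8:105943353-105943652, minus strand: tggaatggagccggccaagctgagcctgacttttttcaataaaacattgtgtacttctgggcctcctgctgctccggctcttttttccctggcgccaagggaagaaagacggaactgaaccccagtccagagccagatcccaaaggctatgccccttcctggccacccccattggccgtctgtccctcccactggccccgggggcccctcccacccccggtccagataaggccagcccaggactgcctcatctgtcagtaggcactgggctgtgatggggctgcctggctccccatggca

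The Apoa1 and Lcat windows held no match to any of the 4 motifs, which says only that these letters are not in these windows. That of Apoa2 held the letters TATAAA at -212 from the start site, and that of Apom held the half-site GGGTCA at -156 and at -32. Of 32851 mouse windows of 300 bases, 27.5% held the half-site, 6.36% the HNF4 core, 7.1% the HNF1 half-site and 13.6% the TATA box. An HNF4 core stood at -182 in the Apoa4 window and at -103 in that of Apob. Apoa1, Apoa4 and Apoa5 lie next to each other on chromosome 9 with Apoc3 between Apoa1 and Apoa4, yet of the 3 Apoa1 alone passed in either sex. Apoc3, an inhibitor of lipoprotein lipase, had a log2 difference of -0.30 ± 0.12 in females (SE, adjusted p = 0.0666, limma) and -0.04 ± 0.12 in males (SE, adjusted p = 0.830, limma). It passed as lower in females under each of the 3 other scalings (-0.40 to -0.49).

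Genes of the surrounding pathway are given from lists chosen with earlier results of these data known. On the deposited scale, each count is to be read against the shares of all genes tested. These were 25.8% higher and 5.53% lower in females and 19.5% higher and 2.04% lower in males. More of the 10568 genes were lower under median-of-ratios scaling, quantile normalization and equal totals without the 20 highest genes. In that order 1750, 2497 and 1176 were lower in females, against 584 as deposited. In males 967, 1153 and 589 were lower, against 216. Counts of list genes under those scalings are to be read against these numbers. Of 18 tested genes of lipoprotein assembly and secretion, 1 rose and 1 fell in females and 1 rose in males, fewer risers than the 25.8% and 19.5% of all genes. The median log2 change of the list was 0.03 in females and 0.06 in males, against 0.09 and 0.10 over all genes tested. Sort1, a sorting receptor that binds apolipoprotein B, was at 3.68 ± 1.16 RPKM in female ARE-Del and 1.49 ± 0.07 RPKM in female WT livers (SD, n = 3 each; log2 change 0.89 ± 0.15, SE, adjusted p = 0.00079, limma). Sar1b, the GTPase of the vesicles that carry large lipoproteins out of the endoplasmic reticulum, was at 26.7 ± 2.9 RPKM in female ARE-Del and 38.4 ± 2.2 RPKM in female WT livers (SD, n = 3 each; -0.51 ± 0.10, SE, adjusted p = 0.0022, limma). In males neither passed, and Tm6sf2, which promotes lipidation of VLDL, rose by 0.37 ± 0.12 (SE, adjusted p = 0.0474, limma), a call lost without female ARE-Del 2 (adjusted p = 0.0579, limma). Under the 3 other scalings 3 to 8 genes of this list were lower in females and 0 were higher in males. P4hb was lower in males under each of the 3 (-0.27 to -0.31). Hspa5 was lower in males under median-of-ratios scaling (-0.46) and quantile normalization (-0.51), and Vti1a under quantile normalization (-0.20).

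The HDL list had 16 tested genes. Of these, 5 rose and 2 fell in females and 5 rose and 0 fell in males, where 25.8% and 19.5% of all genes rose. The list's median log2 change was 0.10 in females and 0.29 in males. Scarb1, the HDL receptor of hepatocytes, was at 9.09 to 12.6 RPKM in female ARE-Del against 6.23 to 6.69 RPKM in female WT livers, and rose by 0.64 ± 0.09 in females and 0.56 ± 0.09 in males on the log2 scale (SE, adjusted p = 0.00024 and 0.0013, limma). Abcg1, an exporter of cholesterol to HDL, rose by 1.22 ± 0.14 in females and 0.76 ± 0.14 in males on the log2 scale (SE, adjusted p = 3.35e-05 and 0.0025, limma). Pla2g7, a lipoprotein-bound phospholipase made by macrophages, rose by 1.96 ± 0.10 in females and 1.60 ± 0.10 in males (SE, adjusted p = 1.59e-07 and 7.02e-07, limma). Lipc, the hepatic lipase that remodels HDL, fell by 0.56 ± 0.12 in females (SE, adjusted p = 0.0030, limma) and had a log2 difference of 0.04 ± 0.12 in males (SE, adjusted p = 0.859, limma). Under median-of-ratios scaling 4 genes of the list were higher and 4 lower in females. The rise of Pon3 in males (0.34, adjusted p = 0.0370 in limma) did not pass under any of the 3 other scalings. It was 0.19 to 0.23 there (adjusted p = 0.0806 to 0.138, limma). Without female ARE-Del 2 the fall of Pon1 in females did not pass (-0.35, adjusted p = 0.0568 in limma). Lipg, which had not passed, was then lower (-0.40, adjusted p = 0.0449 in limma).

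Of 12 genes of plasma triglyceride lipolysis, 2 rose and 1 fell in each sex, where 25.8% of all genes rose in females and 19.5% in males. Under the 3 other scalings 1 rose and 2 or 3 fell in females, and 1 rose and 2 fell in males. Without female ARE-Del 2 a single gene rose in females, since Furin, a protease that cleaves lipases, was then at 0.16 (adjusted p = 0.158, limma). Lpl, the lipase that hydrolyses triglyceride in VLDL, was at 20.1 to 23.2 RPKM in female ARE-Del against 1.31 to 2.45 RPKM in female WT livers, and at 4.08 to 12.4 RPKM in male ARE-Del against 1.70 to 2.60 RPKM in male WT livers. Lpl rose by 2.94 ± 0.27 in females and 1.38 ± 0.27 in males on the log2 scale (SE, adjusted p = 4.75e-06 and 0.00345, limma), and the difference between the sexes was 1.57 (adjusted p = 0.0898, limma). Macrophages express Lpl and Pla2g7, and the macrophage sums given above moved with the same groups. Of 17 genes that supply lipid for these particles, 2 rose and 1 fell in females and 3 rose and 1 fell in males, below the 25.8% of all genes that rose in females and close to the 19.5% in males. Fitm1, which helps to form lipid droplets, was at 1.37 ± 0.60 RPKM in female ARE-Del and 4.88 ± 0.67 RPKM in female WT livers, and at 4.46 ± 1.30 RPKM in male ARE-Del and 21.7 ± 1.0 RPKM in male WT livers (SD, n = 3 each). Pnpla2, the lipase that starts hydrolysis of stored triglyceride, rose by 0.75 ± 0.10 in females and 0.68 ± 0.10 in males (SE, adjusted p = 0.00014 and 0.00063, limma). In females, 6 to 8 genes of this list were lower under the 3 other scalings.

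Of 18 receptor and clearance genes, 4 rose and 1 fell in females and 2 rose and 1 fell in males, where 25.8% and 19.5% of all genes rose. Under the 3 other scalings 2 or 3 rose in females. Without female ARE-Del 2 the rise of Lsr in females did not pass (0.37, adjusted p = 0.0507 in limma). Xylt2, which had not passed, was then higher (0.23, adjusted p = 0.0308 in limma). Lrp1, a receptor for remnant particles, was at 40.8 ± 3.0 RPKM in female ARE-Del and 26.6 ± 1.8 RPKM in female WT livers (SD, n = 3 each; log2 change 0.60 ± 0.09, SE, adjusted p = 0.00035, limma). Vldlr fell by 0.58 ± 0.09 in females (SE, adjusted p = 0.00035, limma), at 0.276 to 0.604 RPKM in ARE-Del against 0.893 to 1.32 RPKM in WT livers. Cd36, a fatty acid transporter, fell by 0.69 ± 0.18 in males (SE, adjusted p = 0.0158, limma) and had a log2 difference of 0.01 ± 0.18 in females. Of 13 tested genes of acute phase proteins, 5 rose and 0 fell in females and 3 rose and 0 fell in males, where 25.8% and 19.5% of all genes rose. Without female ARE-Del 2, 4 rose in females, with Lcn2 at 1.40 (adjusted p = 0.0876, limma), and the list's median there was 0.23 against 0.85 with it. Hpx, the haem-binding protein hemopexin, was at 2503 to 4414 RPKM in female ARE-Del against 1090 to 1481 RPKM in female WT livers, and at 2256 to 2940 RPKM in male ARE-Del against 868 to 1826 RPKM in male WT livers.

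Of 17 matched other genes with apolipoprotein names, 12 were tested and 5 were below the filter. Among the 12, 6 rose and 1 fell in females and 7 rose and 0 fell in males, where 25.8% and 19.5% of all genes rose. Apol10b was at 0.111 RPKM or less and Apobr at 0.461 RPKM or less in every WT library. Both passed the filter through ARE-Del libraries alone, so these counts are description only. Under the 3 other scalings 3 or 4 of the 12 were lower in females and 1 or 2 in males. Without female ARE-Del 2, 11 were tested, of which 5 rose and 0 fell in females, and the median there was 0.07 against 0.45 with it. These medians are not over the same genes, since Apobec3, a riser in both sexes, then missed the filter. With all 12 libraries the middle gene of those 11 was Apon, at 0.18 in females. The risers were mostly not components of plasma lipoproteins. Apol9b and Apol10b belong to the intracellular apolipoprotein L family, Apobec1 edits Apob mRNA, and Apobr is a receptor for apolipoprotein B48 on macrophages. Apobec1 was at 7.28 ± 0.37 RPKM in female ARE-Del and 3.14 ± 0.20 RPKM in female WT livers, and at 6.16 ± 0.03 RPKM in male ARE-Del and 3.37 ± 0.46 RPKM in male WT livers (SD, n = 3 each). The Apoc2 entry, merged with Apoc4 in the table, fell by 0.23 ± 0.07 in females (SE, adjusted p = 0.0320, limma), a call lost without female ARE-Del 2 (-0.19, adjusted p = 0.0967 in limma). Among 32 regulators of apolipoprotein genes, 6 rose and 1 fell in females and 7 rose and 1 fell in males, below the 25.8% of all genes that rose in females and close to the 19.5% in males. Without female ARE-Del 2, 4 regulators rose in females. Foxa3, a liver transcription factor, rose by 0.76 ± 0.14 in females and 0.68 ± 0.14 in males (SE, adjusted p = 0.0013 and 0.0047, limma), and Pparg, a lipid-sensing nuclear receptor, fell by 0.95 ± 0.13 in males (SE, adjusted p = 0.00026, limma). Under quantile normalization 2 regulators were higher and 8 lower in females, and 2 higher and 4 lower in males. None of the genes on these 8 lists passed the interaction test as deposited, and 2 of the genes with apolipoprotein names passed it under quantile normalization.

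Across the 12 libraries the genes most like each member were taken by Pearson correlation of log2(RPKM + 1) among 1575 genes with a mean of at least 10 RPKM, as a description over libraries that share group and scaling. Apoa1 was most like C4bp (r = 0.89), a complement regulator, followed by Igfbp1 and Gvin1. Apom was most like Habp2 (r = 0.98), Hpn (r = 0.98) and F10 (r = 0.97), all genes of serine proteases made in liver. Lcat was most like Bsg, B4galnt1 and F2 (r = 0.96 each). Apoa2 was most like Gstk1 (r = 0.99), Ugt3a1 and Acadm, and Mttp was most like Chchd2, Acaa2 and Dhrs4 (r = 0.95 to 0.97). Apob was most like Insig2, Acadsb and Kmo, Apoc1 like Uqcrb, Rbp4 and Sar1b, Apoe like Sepp1, Gabarapl1 and Ugt3a2, Apoa5 like Decr2, Elovl2 and Abca8a, and Apoa4 like Nsbp1, Iqgap2 and Fads2 (r = 0.84 for the first). Among the 45 pairs of members, the pair with the highest correlation was Apom and Lcat (r = 0.88), and after removal of group means it was 0.47. Apoa2 and Mttp gave 0.87, and 0.67 after that removal. Apoa1 and Apoa2 gave -0.77 over the 12 libraries and -0.18 after removal of group means. The highest value after that removal was 0.89, for Apoa5 and Apob, which gave 0.19 over the 12 libraries. Apob with Mttp and Apoa2 with Apoc1 followed, at 0.77 each.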

How the data were processed

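Total RNA was extracted with Trizol from frozen liver and made into libraries with a TruSeq kit, per the labels' protocols. The values are RPKM as deposited by the authors in 1 table of 19852 genes and 12 libraries. The submitters' processing notes name Trimmomatic 0.30, TopHat2 2.0.8, Partek, GenomeStudio 6.6 and mm9. The counting of reads, the use of strand and the depth of each library are not described in the sources used here, so no counting interval was computed.

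A gene was tested if 3 or more libraries reached 0.5 RPKM, which 10568 genes did, with the scaling as deposited. The 4 group means of log2(RPKM + 1) were estimated from all 12 libraries by limma 3.58.1 (R 4.3.3), with a variance trend and Benjamini-Hochberg adjustment over all genes tested, at 0.05, in 5 comparisons. Sex differences are female over male. A log2 change on this scale understates that of genes near 1 RPKM. The fit was tested on simulated data. Intervals are 95%, unadjusted. Ratios within a library, correlations and lack of overlap between groups carry no test. Alternatives covered the pseudocount, filter, scaling, variance model, replicate block and each library left out, 23 for most results. No 2 libraries held more than 0.17% identical values, and within groups libraries correlated at 0.9879 to 0.9942.

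The members and lists were chosen with earlier results of these data known. All 10 members are named. From each of 8 pathway lists the rule takes up to 4 members, those passing in either sex with the largest change, and for likeness the 3 genes with the highest correlation per member. Apoc2, Apoc3, Apon, Apobec3, P4hb, Hspa5, Vti1a, Pon1, Pon3, Lipg, Lsr, Xylt2, Mrc1 and Lck were named after their values were seen. Of 238 list entries, 213 matched an identifier, 2 merged with an unrelated gene and 21 had no match. Promoter windows are from RefSeq GRCm38.p6, not from the authors' build, and for Apoa2 the window nearest the first transcript start was used. Summaries used pandas 2.3.3 and numpy 2.4.6 under Python 3.11.15, and figures used matplotlib 3.10.9.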

Additional observations from a re-analysis of the deposited data

How the results depend on the processing

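Each result of a member had 23 alternatives (22 for the interaction). Over all these values 1039 kept direction and side of the threshold, 33 lost the call, 25 gained one, 43 changed sign outside the threshold in both fits and 0 changed sign with a call. The 10 genes gave 5 calls in females under median-of-ratios scaling, with equal totals without the 20 highest genes and without a variance trend, against 3 as reported. In males they gave 1 without a filter, against 2. In ARE-Del livers between the sexes they gave 1 without a filter, 1 with the replicate block, 1 with only the 6 libraries compared and 5 with equal totals without the 20 highest genes, against 3, and in WT livers 4 under quantile normalization, against 2. The cause was not tested. Over all genes tested, calls in females under those settings were 3665, 3355 and 3303, against 3306 as reported. Calls in males without a filter were 2104, against 2272. Between the sexes in ARE-Del livers all genes gave 2539, 2063, 1990 and 2580 in the same order, against 2370. For WT livers all genes gave 1395 under quantile normalization, against 1031. The interaction over all genes gave 60 calls as reported, 14 with a pseudocount of 0.1, 15 with 0.5, 30 without a filter, 0 with a filter of 1 RPKM in 6 libraries, 106 under quantile normalization, 39 without a variance trend and 32 with the replicate block.

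Leaving out each library in turn gave 2297 to 3272 calls over all genes in females (2 to 4 members), 1259 to 2481 in males (1 to 3 members), 0 to 74 for the interaction (0 members), 1367 to 2494 between the sexes in ARE-Del livers (1 to 3 members) and 525 to 1116 in WT livers (2 to 3 members). The lowest counts came without male WT 1 in males (1259), for the interaction (0) and in WT livers (525), and without female ARE-Del 3 in ARE-Del livers (1367). In males 1 member passed without male ARE-Del 3 or without male WT 3. Between the sexes in ARE-Del livers 1 member passed without female ARE-Del 2, female ARE-Del 3, female WT 1 or male WT 1.

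No pairing of libraries by replicate number was seen: over 18 pairs, same-numbered libraries had correlations of deviations between -0.2911 and 0.2448, with 5 over 0.1. Deviations from means of 3 libraries cannot exclude a pairing. With the replicate block 3019 genes passed in females, 2024 in males, 2063 between the sexes in ARE-Del livers and 845 in WT livers. Between the sexes in ARE-Del livers the Apom and Apob calls missed the threshold with the block (adjusted p = 0.0727 and 0.0632, limma), and it ended no other call of a member. Depth could not be set against these values, since read totals were not used here.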
